A study of Mus musculus with 14 samples.

Results

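Fc receptors are the proteins through which immune cells bind the constant part of antibodies. The 6 genes followed here were FCGR1, FCGR2B, FCGR3, FCGR4, FCER1G and FCGRT, taken by symbol (written in capitals in the deposited table) from 24982 listed genes. All 6 were among the 13136 genes with enough reads to be tested, and each had between 1226 and 20053 reads in every library. The libraries were made from mature macrophages of the lamina propria of colon and cecum, sorted as viable CD45+ CD11b+ CD64+ MHCII+ cells that lacked Ly6G, CD103 and Ly6C. CD64 is the product of FCGR1, so all libraries were gated on the protein of a member, and an antibody against CD16/32, the products of FCGR3 and FCGR2B, was used as an Fc block.

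All mice were C57BL/6 animals aged 5 weeks that carried Cdcs1, a stretch of chromosome 3 that makes mice prone to colitis. WT mice carried Cdcs1 alone (4 mice in the fit, and mouse 11 outside it), IL10RAKO mice were Cdcs1, Il10ra -/- (4 mice) and DKO mice were Cdcs1, Il10ra -/-, Ccr2 -/- (4 mice). A single CCR2KO library (Cdcs1, Ccr2 -/-) had no replicate and entered no test. The deletions were present in the whole animal, and the authors report that colitis arises spontaneously in mice without Il10ra on this background. Loss of the receptor in the macrophage and the state of the colon around it therefore cannot be told apart. FCGR1 also lies on chromosome 3, and all groups shared the Cdcs1 label.

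FcγRI (FCGR1), FcγRIII (FCGR3) and FcγRIV (FCGR4) are activating receptors for IgG. They signal through the common γ chain (FCER1G), whose ITAM motif recruits the kinase SYK and which is also needed for these receptors to reach the cell surface. FcγRIIB (FCGR2B) is the inhibitory receptor: its ITIM recruits the lipid phosphatase SHIP-1 (INPP5D) and raises the threshold for activation by immune complexes. FCGRT encodes the heavy chain of the neonatal Fc receptor FcRn, which pairs with β2-microglobulin (B2M) in acidic endosomes and protects IgG and albumin from degradation. In the gut, macrophages meet IgG bound to commensal bacteria, and interferon-γ is a known inducer of FCGR1 and FCGR4.

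Promoter windows of 4 genes are shown because their genes are the activating receptors that rose in one or both knockouts (FCGR4, FCGR1, FCGR3) and the inhibitory receptor that did not pass the test (FCGR2B). Each runs from 250 bases before to 50 bases after the RefSeq gene start (GRCm38.p6), read on the gene's own strand, which is the plus strand at chr1:171018676-171018975 for FCGR4 and the minus strand at chr3:96293920-96294219 for FCGR1, chr1:171059354-171059653 for FCGR3 and chr1:170976022-170976321 for FCGR2B. Capitals mark matches to TTCNNNGAA (the GAS element of interferon-γ responsive genes), GAAANNGAA (the core of the ISRE bound by IRF proteins) or GAGGAA (a core of PU.1 sites), searched on both strands.
FCGR4: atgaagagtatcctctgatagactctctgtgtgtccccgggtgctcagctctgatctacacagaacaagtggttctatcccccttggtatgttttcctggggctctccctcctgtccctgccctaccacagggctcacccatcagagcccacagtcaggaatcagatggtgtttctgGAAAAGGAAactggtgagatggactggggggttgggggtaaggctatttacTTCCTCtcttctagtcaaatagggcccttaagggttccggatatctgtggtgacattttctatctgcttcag
FCGR1: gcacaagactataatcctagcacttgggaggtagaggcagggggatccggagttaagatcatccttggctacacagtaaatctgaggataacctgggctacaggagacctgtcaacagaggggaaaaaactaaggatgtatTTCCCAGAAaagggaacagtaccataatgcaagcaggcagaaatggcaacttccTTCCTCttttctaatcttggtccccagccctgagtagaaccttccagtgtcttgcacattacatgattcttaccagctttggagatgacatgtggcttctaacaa
FCGR3: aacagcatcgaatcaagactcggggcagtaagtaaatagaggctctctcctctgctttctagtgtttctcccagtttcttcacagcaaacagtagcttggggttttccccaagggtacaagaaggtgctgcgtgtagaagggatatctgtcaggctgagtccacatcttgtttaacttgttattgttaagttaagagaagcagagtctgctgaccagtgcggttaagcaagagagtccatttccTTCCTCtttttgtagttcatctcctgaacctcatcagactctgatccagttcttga
FCGR2B: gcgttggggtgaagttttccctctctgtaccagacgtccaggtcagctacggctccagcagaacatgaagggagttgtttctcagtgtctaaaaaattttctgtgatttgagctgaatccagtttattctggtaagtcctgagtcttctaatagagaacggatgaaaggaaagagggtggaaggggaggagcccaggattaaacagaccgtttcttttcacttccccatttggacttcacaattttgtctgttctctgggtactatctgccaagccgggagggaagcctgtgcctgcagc

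The FCGR4 window held a match to the ISRE core, GAAAAGGAA, at -73 to -65 from the start. The FCGR1 window held a match to the GAS element, TTCCCAGAA, at -109 to -101. GAGGAA was found on the opposite strand, as TTCCTC, at -22 to -17 in FCGR4, at -55 to -50 in FCGR1 and at -6 to -1 in FCGR3 (at -15 to -10 from the other start that RefSeq lists for FCGR3). No match overlapped another, and the windows of FCGR2B, FCER1G and FCGRT held none of these letters. Among 32851 promoter windows of this length, 8.3% held TTCNNNGAA, 8.56% held GAAANNGAA and 28.3% held GAGGAA. The motifs were chosen after the sequences had been seen, and a match is a run of letters, not a binding site.

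FCGR4 (chr1:171018920-171029761, plus strand), FCGR2B (chr1:170958617-170976547), FCGR3 (chr1:171051174-171064935) and FCER1G (chr1:171229572-171234365), the last 3 on the minus strand, lie within 275.7 kb of chromosome 1 in GENCODE vM21 (GRCm38). FCGR1 (chr3:96282909-96293969) and FCGRT (chr7:45092990-45103851) are on the minus strand of other chromosomes. FCGR2B and FCGR3 resemble each other in sequence: 44 windows of 100 bases, 2.54% of those in FCGR3 transcripts, occur in transcripts of both genes. How reads from there were counted is not stated. Antisense genes of GENCODE overlap FCGR2B and FCGRT, and whether the counting used strand is not stated.

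The 12 libraries in the fit held 13085287 to 21216468 counted reads. IL10RA fell from 285 ± 70.1 CPM (read counts scaled to library size with TMM factors; mean ± SD, n = 4) in WT to 7.41 ± 2.67 in IL10RAKO and 5.31 ± 2.12 in DKO, and CCR2 was at 5.67 ± 1.22 in DKO against 593 ± 80.0 in WT, as the labels give. Macrophage markers (11 of 11 detected) summed to 33300 to 42400 CPM in WT libraries, 43600 to 62600 in those of IL10RAKO and 38300 to 49500 in those of DKO. H2-AB1, H2-AA and LYZ2 made up most of that sum, and the list did not move as one: 1 marker, H2-AB1, was called higher in IL10RAKO, while in DKO MERTK was called higher and ADGRE1 (log2 fold change -1.05) and CX3CR1 (-1.21) lower. Other cell types were present too: B cell markers (7 of 7 detected) summed to 449 to 1300 CPM in WT libraries, 343 to 1030 in those of IL10RAKO and 504 to 1320 in those of DKO, and fibroblast markers (6 of 6) fell from 294 to 577 in WT to 15.0 to 53.7 in IL10RAKO and 16.1 to 67.0 in DKO. Dendritic cell markers (6 of 6) summed to 309 to 1410 CPM in WT libraries, 1550 to 1930 in those of IL10RAKO and 1030 to 1830 in those of DKO, with 3 called higher in IL10RAKO, and 2 higher and 1 lower in DKO. Endothelial markers (6 of 6) summed to 69.9 to 490 CPM in WT libraries, 21.9 to 31.5 in those of IL10RAKO and 41.8 to 64.4 in those of DKO, with 2 called lower in each knockout. The part of these cell types in the members' values was not tested. The library of WT mouse 11 differed from the rest of its group, with 11670 genes detected and epithelial markers at 2610 CPM, and it enters below only where it is named.

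In WT macrophages FCER1G was the most abundant member per length of transcript, at 769 ± 127 CPM per kb of exon (mean ± SD, n = 4). FCGR3 followed at 297 ± 34.9. FCGRT (109 ± 12.8), FCGR2B (104 ± 13.8) and FCGR4 (93.5 ± 36.3) differed by less than their spread, and FCGR1 was lowest at 39.3 ± 11.0. The place of FCGR2B depended on which length was used: its exons span 5790 bases over all transcripts but 1520 bases in the median coding transcript, and with coding transcripts it stood at 395 ± 52.4 CPM per kb beside FCGR3 at 390 ± 45.8. FCGR4 moved from the fifth place in WT to the third in IL10RAKO (251 ± 64.4 CPM per kb of exon) and DKO (203 ± 35.6), above FCGRT and, by exon length but not by coding transcript, above FCGR2B. Even the lowest member was a well-expressed gene, since the mean CPM of FCGR1 in WT lay above that of 88.3% of tested genes and that of FCER1G above 99.1%.

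The comparison of IL10RAKO with WT asks how these genes differ in macrophages of mice without the IL-10 receptor. The activating receptors and their shared chain were higher in IL10RAKO: FCGR4, FCGR1, FCER1G and FCGR3 passed the test, by 2.68-, 1.77-, 1.56- and 1.55-fold. Thus 4 of 6 members were called, all of them higher, against 15.8% of all tested genes called in either direction and 8.7% called higher. The inhibitory FCGR2B and the FcRn heavy chain FCGRT did not pass. Whether FCGR2B changed less than the activating receptors was not tested. Its confidence interval on the log2 scale, -0.13 to 0.90, held the estimates of FCGR3 (0.63), FCER1G (0.64) and FCGR1 (0.83), but not that of FCGR4 (1.42).

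FCGR4 was measured at 83.9, 89.1, 183 and 114 CPM in WT mice 4, 5, 10 and 13. In IL10RAKO mice 1, 2, 7 and 8 it stood at 322, 294, 224 and 419 CPM, and in DKO mice 3, 9, 12 and 14 at 290, 208, 224 and 295 CPM. Every knockout library lay above every WT library, with IL10RAKO mouse 8 the highest and WT mouse 10 the nearest of the WT libraries. FCGR4 thus had a log2 fold change of 1.42 (SE 0.26, adjusted p = 0.00164) in IL10RAKO and 1.11 (SE 0.25, adjusted p = 0.0072) in DKO. FCGR4 was the only member called against WT in both knockouts under every alternative fitted across all genes. In the exact Mann-Whitney test it reached the smallest p that 4 against 4 mice allow (0.0286), which is 0.103 when adjusted over the 18 tests of members and comparisons and so does not pass. Passing would need most of the 18 tests at that smallest p, so the adjusted test cannot decide on FCGR4 alone. Over all 23 alternatives the log2 difference of FCGR4 ranged from 1.09 to 1.72 in IL10RAKO and from 0.86 to 1.42 in DKO.

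Monocytes and neutrophils also carry FcγRIV, and some of their genes moved in the same direction. Monocyte markers (7 of 7 detected) summed to 168 to 215 CPM in WT libraries, 439 to 1110 in those of IL10RAKO and 522 to 788 in those of DKO, and 3 of 7 (LY6C2, PLAC8 and TREML4) were called higher in each knockout. Neutrophil markers (9 of 9 detected) summed to 75.2 to 122 CPM in WT libraries, 138 to 321 in those of IL10RAKO and 173 to 277 in those of DKO, and 5 of the 7 tested were called higher in IL10RAKO and 6 of 7 in DKO, among them S100A8 (0 to 0.732 CPM in WT, 0.809 to 42.8 in IL10RAKO, 9.83 to 21.4 in DKO) and S100A9 (0 in every WT library, 0.506 to 40.8 in IL10RAKO, 8.01 to 16.9 in DKO). Most of the neutrophil sum came from a single gene, CSF3R, which ranged over 73.4 to 117 CPM (WT), 132 to 230 (IL10RAKO) and 131 to 224 (DKO). LY6G itself was at 0 to 0.747 CPM. Their part in the FCGR4 result was not tested. In bulk libraries a change in the make-up of the sorted cells and a change in RNA per cell cannot be told apart.

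**Figure D1:**
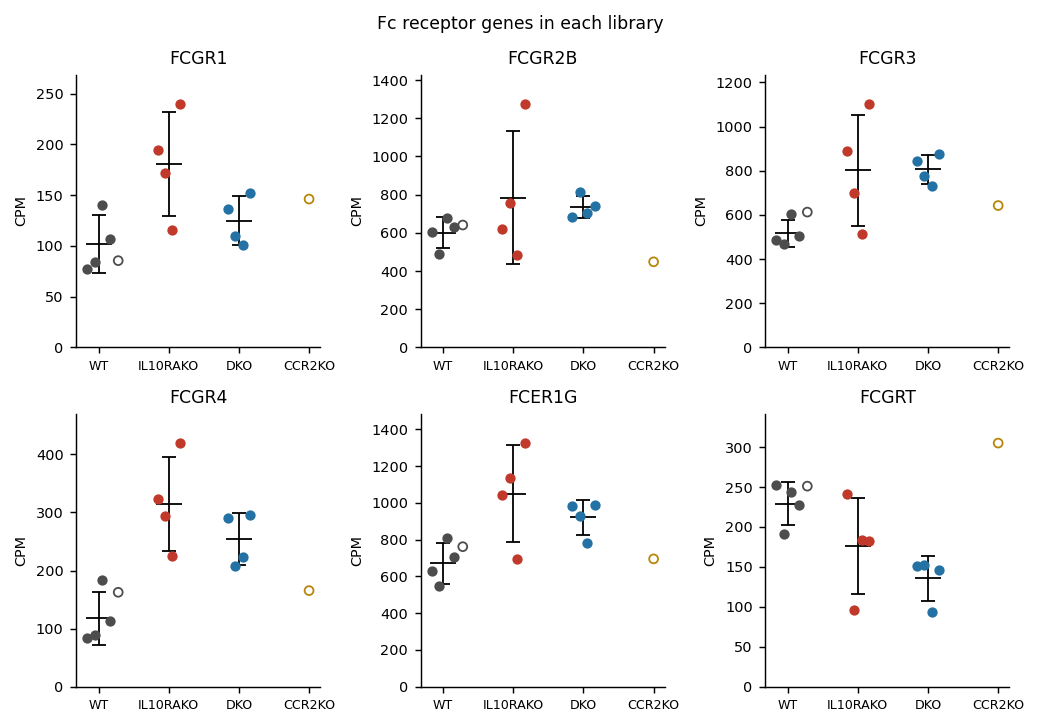
CPM (TMM-scaled) of each Fc receptor gene (vertical axes, from 0) by genotype, 1 point per mouse, with mean and SD of the 4 mice in the fit as bars. Open circles are libraries outside the fit (WT mouse 11 and CCR2KO mouse 6). FCGR4 shows no overlap between WT (83.9 to 183) and either knockout, whereas FCGR2B overlaps between WT and IL10RAKO.

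FCGR1, the high-affinity receptor and the gate marker, was at 76.9, 83.9, 140 and 106 CPM in WT mice 4, 5, 10 and 13 and at 194, 171, 116 and 240 CPM in IL10RAKO mice 1, 2, 7 and 8. IL10RAKO mouse 7 lay below WT mouse 10, and the other 3 IL10RAKO libraries lay above all 4 WT libraries. The IL10RAKO difference was 0.83 on the log2 scale (SE 0.24, adjusted p = 0.0304). This call was lost with library totals and with only the 2 genotypes fitted, and held in 6 of 12 fits that left out 1 mouse. In DKO mice 3, 9, 12 and 14 FCGR1 was at 137, 110, 101 and 152 CPM, which overlapped with WT, and its log2 fold change of 0.30 (SE 0.24) did not pass (adjusted p = 0.429).

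FCGR3, the low-affinity activating receptor, was at 484, 470, 604 and 505 CPM in WT mice 4, 5, 10 and 13. It was at 890, 698, 513 and 1103 CPM in IL10RAKO mice 1, 2, 7 and 8 and at 844, 777, 731 and 875 CPM in DKO mice 3, 9, 12 and 14. All DKO libraries lay above all WT libraries, whereas IL10RAKO mouse 7 lay within the WT range. FCGR3 had a log2 fold change of 0.63 (SE 0.20, adjusted p = 0.0456) in IL10RAKO and 0.64 (SE 0.20, adjusted p = 0.0381) in DKO. Both calls were close to the threshold and were lost when WT mouse 11, at 613 CPM, was added (0.57, adjusted p = 0.0682, and 0.58, adjusted p = 0.0586). NK cells carry FcγRIII too, and their markers (8 of 8 detected) summed to 17.7 to 26.1 CPM in WT libraries, 24.6 to 46.6 in those of IL10RAKO and 18.0 to 43.7 in those of DKO, with NCR1 at up to 2.99 CPM in WT, at most 0.561 in IL10RAKO and at most 0.718 in DKO. KLRD1 was the NK marker called higher in IL10RAKO and edgeR called none in DKO (2 of 6 tested at an unadjusted p under 0.05, median of the sum 20.1 CPM against 19.7 in WT). The part of NK cells was not tested.

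FCER1G, the common γ chain, was at 629, 547, 807 and 705 CPM in WT mice 4, 5, 10 and 13 and at 1042, 1134, 695 and 1325 CPM in IL10RAKO mice 1, 2, 7 and 8. Again 3 IL10RAKO libraries lay above all WT libraries and mouse 7 lay among them. Its log2 fold change was 0.64 (SE 0.19, adjusted p = 0.036). As for FCGR1, the call was lost with library totals and with only the 2 genotypes fitted, and held in 6 of 12 fits without 1 mouse. In DKO mice 3, 9, 12 and 14 it was at 984, 930, 783 and 989 CPM, with only mouse 12 inside the WT range, and the log2 fold change of 0.46 (SE 0.19) did not pass (adjusted p = 0.12). Mast cells use this chain as well, but most of their defining genes were at or near 0, with TPSAB1 at 0 in all 12 libraries, MS4A2 at 0 to 0.663 CPM and CPA3 at 0 to 2.11 CPM. The 11 mast cell markers summed to 11.0 to 38.4 CPM in WT and 123 to 225 in IL10RAKO, almost entirely from KIT and HDC, both called higher in each knockout, and their part in the FCER1G result was not tested.

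FCGR2B, the inhibitory receptor, was at 603, 491, 679 and 632 CPM in WT mice 4, 5, 10 and 13. It was at 622, 758, 482 and 1276 CPM in IL10RAKO mice 1, 2, 7 and 8, a spread (SD 347) larger than the difference of the means. The log2 fold change was 0.38 (SE 0.24, adjusted p = 0.312) and, without IL10RAKO mouse 8, 0.05. In DKO mice 3, 9, 12 and 14 it was at 683, 813, 703 and 740 CPM, all above the 4 WT libraries by a small margin. The log2 fold change of 0.29 (95% interval -0.22 to 0.80) did not pass (adjusted p = 0.443). FCGR2B is the Fcγ receptor of B cells, whose summed markers overlapped between the groups, and edgeR called none of the 7 in either knockout against WT (0 of 7 at an unadjusted p under 0.05). Their part in the FCGR2B values was not tested.

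FCGRT went the other way. It was at 253, 192, 244 and 228 CPM in WT mice 4, 5, 10 and 13, at 241, 96.2, 184 and 183 CPM in IL10RAKO mice 1, 2, 7 and 8, and at 151, 152, 93.7 and 146 CPM in DKO mice 3, 9, 12 and 14. All DKO libraries lay below all WT libraries, while IL10RAKO mouse 1 lay inside the WT range and mouse 2 was as low as the lowest DKO library. The log2 fold change was -0.76 (SE 0.24, adjusted p = 0.0416) in DKO and -0.38 (SE 0.24, adjusted p = 0.317) in IL10RAKO. The DKO call held in 3 of 12 fits that left out 1 mouse. B2M, the light chain of FcRn and of MHC class I, moved in the opposite direction, from 2533 ± 151 CPM in WT to 5779 ± 1060 in IL10RAKO (log2 fold change 1.19, adjusted p = 0.000133) and 5538 ± 539 in DKO (1.13, adjusted p = 0.000175).

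In DKO against WT, 3 of 6 members were therefore called, against 18.5% of all tested genes. FCGR4 and FCGR3 were higher (9.23% of tested genes were called higher) and FCGRT was lower (9.22% were called lower). Both knockout comparisons used the same 4 WT mice, so they are not independent of each other.

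**Figure D2:**
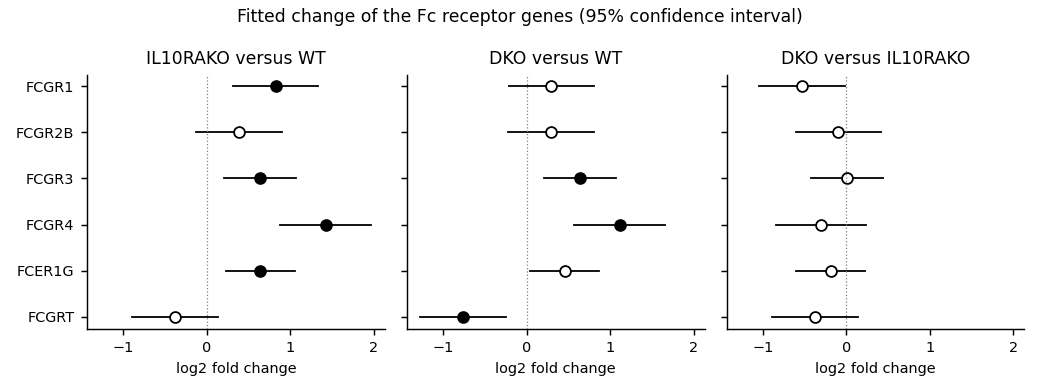
Log2 fold change (horizontal axes) of each member in the 3 comparisons, with 95% confidence intervals as lines. Filled points passed an adjusted p of 0.05 and open points did not. FCGR4 has the largest change against WT in both knockouts (1.42 and 1.11), FCGRT lies below 0 in all 3 panels, and no member passed in DKO versus IL10RAKO.

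The comparison of DKO with IL10RAKO asks what loss of CCR2 adds to loss of IL10RA. The authors report milder colitis in DKO than in IL10RAKO mice. Loss of CCR2 in the macrophage and the state of the colon therefore cannot be told apart here either. edgeR called 0 of 6 members, against 0.0457% of all tested genes (6 of 13136), and DESeq2 and limma also called 0. At an unadjusted p under 0.05 there was 1 member, FCGR1, with a log2 fold change of -0.53 (95% interval -1.04 to -0.02, adjusted p = 0.9999), and 388 genes in all. The intervals of the other members reached both sides of 0: they were -0.85 to 0.23 for FCGR4, -0.42 to 0.44 for FCGR3, -0.60 to 0.23 for FCER1G, -0.61 to 0.42 for FCGR2B and -0.89 to 0.14 for FCGRT. A log2 difference of -0.5 still lay within the intervals of FCGR4, FCER1G, FCGR2B and FCGRT, so the data do not show that these genes were equal in the 2 genotypes.

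The scaling matters for the size of these differences. The factors TMM assigned were 1.09 to 1.18 for WT libraries, 0.851 to 0.972 for IL10RAKO and 0.893 to 1.01 for DKO. With library totals alone, the median over all genes moved from -0.07 to -0.38 in IL10RAKO and from -0.06 to -0.32 in DKO on the log2 scale. Measured from those medians, FCGR4 was higher by 1.49 with TMM and 1.47 with totals in IL10RAKO, FCGR1 by 0.90 and 0.87, FCGR3 by 0.70 and 0.68, FCER1G by 0.71 and 0.70, and FCGRT stood at -0.31 with both. All 6 members kept their direction against WT with either scaling, but with totals only FCGR4 and FCGRT were called in IL10RAKO.

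Ratios of the members' read counts within a library do not depend on the scaling. Reads of FCGR4 per read of FCGR2B, an activating over the inhibitory receptor, were 0.193 ± 0.0551 in WT (0.139 to 0.270), 0.425 ± 0.0836 in IL10RAKO (0.329 to 0.518) and 0.349 ± 0.0771 in DKO (0.256 to 0.425; mean ± SD, n = 4). All IL10RAKO libraries lay above all WT libraries, and in DKO only mouse 9 lay below the highest WT library. The ratio of FCGR1 to FCGR2B overlapped between WT (0.127 to 0.206) and both IL10RAKO (0.188 to 0.313) and DKO (0.135 to 0.206). FCGR1 reads per FCGR4 read were 0.764 to 0.941 in the 4 WT libraries, 0.518 to 0.603 in IL10RAKO and 0.449 to 0.529 in DKO. WT mouse 11, outside the fit, had a ratio of 0.526, within the knockout range. The CCR2KO library had 0.883 for this ratio, within the WT range, but 0.369 for FCGR4 to FCGR2B, above all 4 WT libraries, and 0.326 for FCGR1 to FCGR2B, above every library in the fit. These ratios were chosen after the values had been seen and are given without a test.

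**Figure D3:**
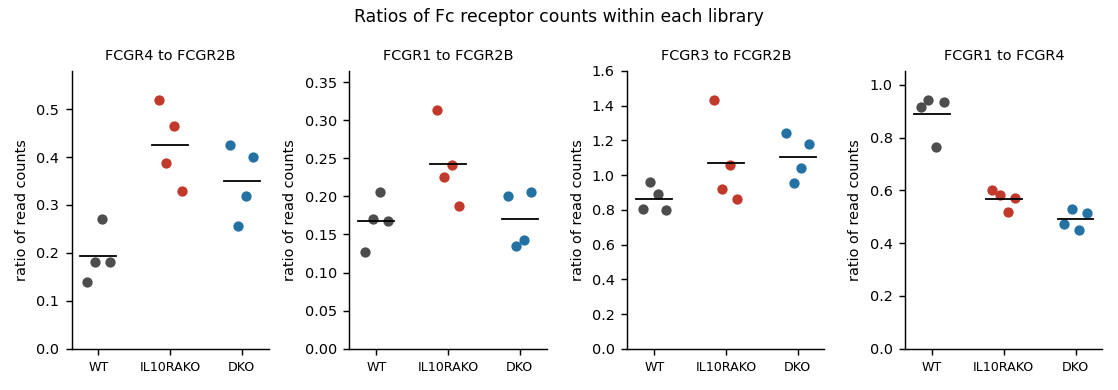
Ratios of raw read counts of pairs of members within each library (vertical axes, from 0), 1 point per mouse in the fit, with the mean of 4 mice as a line. FCGR4 to FCGR2B is higher in IL10RAKO (0.329 to 0.518) than in WT (0.139 to 0.270), and FCGR1 to FCGR4 is lower in both knockouts than in these 4 WT mice.

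The members other than FCGRT moved together from mouse to mouse. Within IL10RAKO, mouse 8 was the highest of 4 for 5 members and mouse 7 the lowest for the same 5 (all but FCGRT). Within WT, mouse 10 was highest for 5 members, and within DKO mouse 14 was highest for 4. The summed macrophage markers were also highest in IL10RAKO mouse 8 (62600 CPM) and WT mouse 10 (42400), lowest within IL10RAKO in mouse 7 (43600), and B cell markers were lowest in the same mice 8 (343) and 10 (449) of their groups. In DKO the macrophage sum was highest in mouse 9 (49500) and not in mouse 14 (48600), while B cell markers were lowest in mouse 14 (504). Their part in the spread was not tested. Over the 12 libraries, Pearson's r of log2(CPM + 1) was 0.61 to 0.914 between pairs of FCGR1, FCGR2B, FCGR3, FCGR4 and FCER1G, and -0.418 to -0.104 between FCGRT and each of them. These libraries share the genotype differences, so r describes the pattern and carries no p.

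**Figure D4:**
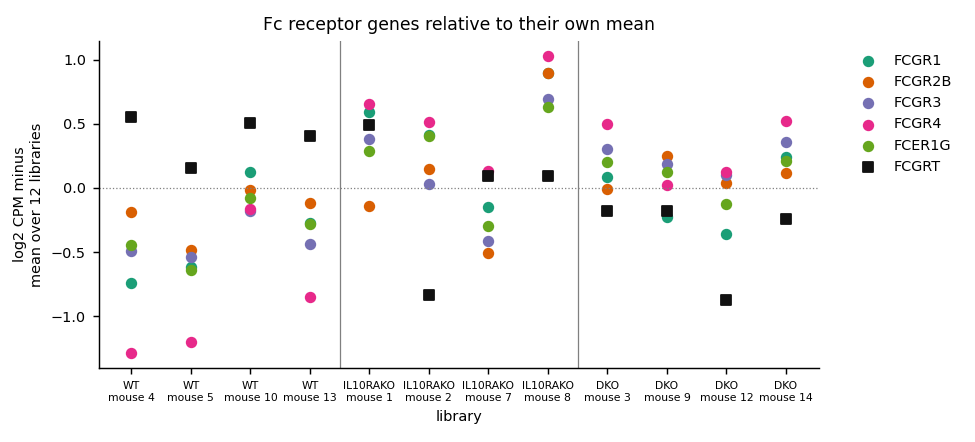
Log2 CPM of each member minus its mean over the 12 libraries (vertical axis) in each library (horizontal axis), with circles for the Fcγ receptors and FCER1G and black squares for FCGRT. In IL10RAKO mouse 8 all 6 points lie above 0 (FCGR1 and FCGR2B coincide at 0.90), and in WT mouse 5 the 5 circles lie below 0.

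Among 8328 other genes with a mean of at least 10 CPM, those most like each member over the 12 libraries were found by the same r. They were SCIMP (0.956), CTSS (0.952) and MINDY3 (0.946) for FCGR4. They were CTSH (0.941), MS4A6C (0.936) and YIPF1 (0.92) for FCGR1, and CTSC (0.975), MS4A6D (0.971) and RAB5IF (0.966) for FCGR3. FCER1G was most like PILRB1 (0.97), ZNHIT1 and ATOX1 (both 0.961), and FCGR2B was most like CNDP2 (0.877), PLOD3 (0.858) and MAPKAPK5 (0.855). FCGRT had PINK1 (0.952), GPR160 (0.926) and LOC105246506 (0.905).

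Other receptors that signal through the common γ chain spanned a wide range in IL10RAKO against WT, from a log2 fold change of -3.07 to one of 4.23. Of 12 listed genes 10 were tested, and in this comparison 5 were higher, 2 lower and 3 did not pass (median log2 fold change 0.90, against -0.07 over all tested genes), with the same counts in DKO (median 1.08). CLEC4E (Mincle), a receptor for mycobacterial and damaged-cell glycolipids, went from 79.5 ± 26.3 CPM in WT to 915 ± 537 in IL10RAKO (log2 fold change 3.53, adjusted p = 2.59e-05) and 800 ± 202 in DKO. CLEC4D, its partner, went from 12.0 ± 5.33 to 72.3 ± 31.2 CPM (2.59, adjusted p = 0.000127), and TARM1, an activating receptor of myeloid cells, from 4.66 ± 4.11 to 88.7 ± 39.1 (4.23, adjusted p = 0.000146). CLEC4B1 fell, from 27.9 ± 7.60 CPM in WT to 3.30 ± 0.241 in IL10RAKO (-3.07, adjusted p = 1.69e-05) and 1.18 ± 0.55 in DKO. The 3 other signalling adaptors listed did not pass in any comparison (1 had an unadjusted p under 0.05 in IL10RAKO). TYROBP (DAP12) was at 414 ± 99.0 CPM in WT and 573 ± 124 in IL10RAKO (0.47, adjusted p = 0.147). HCST, which has no ITAM, had 0.32 and CD247 1.24.

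Downstream of the ITAM, 6 of 23 kinases and adaptors were higher in IL10RAKO, 0 lower and 17 did not pass (median 0.27). The Src-family kinase FGR (186 ± 47.8 to 345 ± 90.1 CPM, log2 fold change 0.89, adjusted p = 0.0103) was among them, with the adaptor LCP2 (0.88, adjusted p = 0.00308) and the PI3-kinase subunit PIK3CB (0.75, adjusted p = 0.0173). The counts in DKO were the same, 6 higher and 0 lower, and with library totals 2 genes were called in each knockout. SYK, the kinase that binds the phosphorylated ITAM, was at 321 ± 58.1 CPM in WT and 377 ± 147 in IL10RAKO (0.23, adjusted p = 0.637).

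On the inhibitory side, 0 of 10 phosphatases and adaptors were called by edgeR in IL10RAKO (2 at an unadjusted p under 0.05, 1 called by DESeq2, 2 with library totals), and 1 was higher and 1 lower in DKO. The 4 with the smallest p in IL10RAKO were CBLB (log2 fold change 0.81, adjusted p = 0.0789), DOK3 (-0.33, adjusted p = 0.117), PTPN6 (SHP-1; 0.43, adjusted p = 0.179) and DOK2 (-0.43, adjusted p = 0.186), of which CBLB (0.95, adjusted p = 0.0354) and DOK2 (-0.70, adjusted p = 0.0293) were called in DKO. Of 10 other ITIM receptors of macrophages, 3 were higher and 1 lower in IL10RAKO, and 3 higher and 2 lower in DKO. CD300LF, a receptor for phosphatidylserine and ceramide, went from 32.6 ± 10.0 CPM in WT to 200 ± 58.6 in IL10RAKO (2.62, adjusted p = 1.06e-05). PILRA (1.13, adjusted p = 0.00213) and PIRB (0.62, adjusted p = 0.0316) were also higher in IL10RAKO, and CLEC4A2 was lower (-1.01, adjusted p = 0.0149). INPP5D, the phosphatase recruited by FcγRIIB, had means of 361 ± 18.9 CPM (WT), 278 ± 92.7 (IL10RAKO) and 299 ± 97.0 (DKO) and did not pass (adjusted p = 0.352 and 0.496).

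A list of 14 other genes held immunoglobulin-binding receptors and proteins together with Fc receptor-like relatives. Of these 10 were tested, with 1 higher and 2 lower in IL10RAKO and 1 higher and 1 lower in DKO. FCRLS, an Fc receptor-like protein of resident macrophages and microglia, fell from 238 ± 24.1 CPM in WT to 16.5 ± 12.0 in IL10RAKO (log2 fold change -3.85, adjusted p = 0.000956) and 6.50 ± 5.69 in DKO (-5.18, adjusted p = 0.000132). No library of either knockout came within the WT range of 220 to 272 CPM. FCRLB, an intracellular relative, went from 8.39 ± 0.573 CPM in WT to 55.6 ± 33.6 in IL10RAKO (2.73, adjusted p = 0.000238) and 49.4 ± 13.6 in DKO. FCGBP, a mucin-associated protein of epithelium, was called lower in IL10RAKO (-6.02, adjusted p = 0.0185). It was at 0.293 to 31.2 CPM in WT, with the lowest WT library inside the IL10RAKO range of 0 to 0.374. In DKO it did not pass (-2.32, adjusted p = 0.226). PIGR, the epithelial transporter of IgA, did not pass in IL10RAKO (-1.93, adjusted p = 0.0579). Epithelial markers summed to 44.2 to 1010 CPM in WT (median 170) and 37.0 to 166 in IL10RAKO (median 120). Of the 7 tested, 1 was called lower in IL10RAKO, and the part of epithelial RNA was not tested. Of 13 listed immunoglobulin genes only JCHAIN was analysed, at 384 ± 232 CPM in WT and 160 ± 56.3 in IL10RAKO (-1.26, adjusted p = 0.225).

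**Figure D5:**
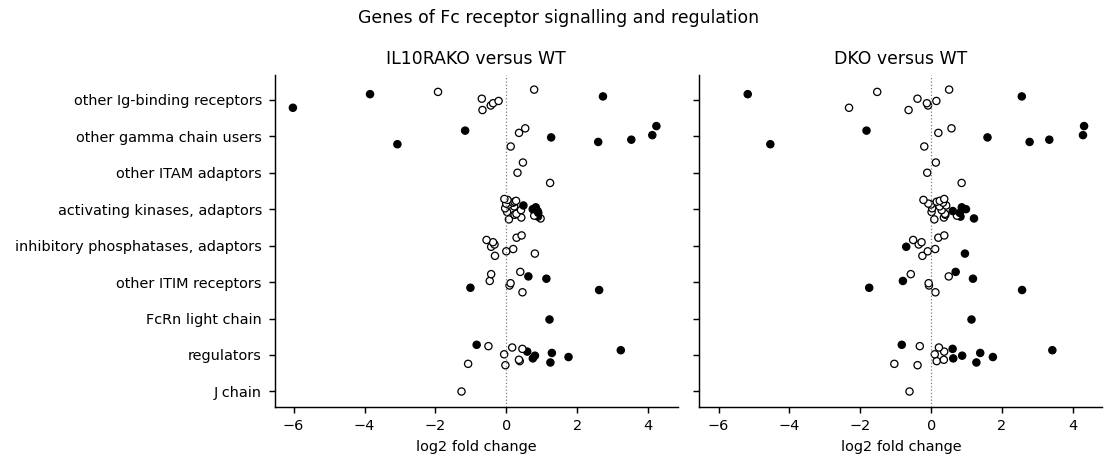
Log2 fold change (horizontal axes) of each tested gene of 9 lists of Fc receptor signalling and regulation, 1 point per gene, with filled points at an adjusted p under 0.05. Points within a list are spread vertically only for legibility. The row of other ITAM adaptors also holds HCST, which has no ITAM. That of other Ig-binding receptors also holds Fc receptor-like relatives and FCGBP. Users of the common γ chain lie on both sides of 0, while the called kinases and adaptors of activating signalling all lie above 0.

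Factors known to act on Fc receptor genes were counted last. Of 16 transcription factors, kinases and cytokine receptor chains, 7 were higher, 1 lower and 8 did not pass in IL10RAKO (median 0.41), and the counts were the same in DKO (median 0.36). IRF1, a transcription factor of the interferon response, went from 344 ± 80.6 CPM in WT to 1162 ± 256 in IL10RAKO (log2 fold change 1.75, adjusted p = 9.93e-05), IRF8 from 505 ± 89.9 to 884 ± 56.7 (0.81, adjusted p = 0.00219) and IL4RA, the receptor chain for the FCGR2B-inducing cytokine IL-4, from 539 ± 54.3 to 905 ± 90.5 (0.75, adjusted p = 0.00419). No direct link between these factors and the members was measured.

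The single CCR2KO library held FCGR1 at 146 CPM, FCGR2B at 449, FCGR3 at 642, FCGR4 at 166, FCER1G at 695 and FCGRT at 305. FCGR4 and FCER1G lay within the range of the 4 WT libraries, FCGR2B lay below it, and FCGR1, FCGR3 and FCGRT lay above it. With 1 library there is no test. WT mouse 11 held FCGR1 at 85.5 CPM, FCGR2B at 641, FCGR3 at 613, FCGR4 at 163, FCER1G at 762 and FCGRT at 251, all but FCGR3 within the range of the other 4 WT libraries.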

How the data were processed

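The authors sequenced SmartSeq v4 cDNA of sorted macrophages, aligned reads with STAR 2.5.1b to mm10 and deposited the raw read count of 24982 genes in 14 libraries (bcl2fastq 2.20 and edgeR 3.34.0 are also named in their processing notes). The authors also deposited edgeR pseudocounts, a score per gene that edgeR adjusts to a common library size, for 13338 genes in 12 libraries. The annotation and strand setting are not given in the sources used here.

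The 12 libraries of the pseudocount table (13085287 to 21216468 reads, 4 mice per genotype) were fitted together from the raw counts in R 4.3.3 with edgeR 4.0.16: filterByExpr (minimum count 10), TMM, and the quasi-likelihood test with the deviance of edgeR 3. P-values were adjusted over all 13136 tested genes by the Benjamini-Hochberg method, with a threshold of 0.05, and standard errors and 95% intervals come from that fit. The number of mice and not read depth limits the precision. P-values measure the spread between these mice, and no batch, sex or litter is given in the labels. limma 3.58.1 and DESeq2 1.42.0 served as alternatives. The script was tested on simulated data. Pathway genes named are the up to 4 per list with the smallest adjusted p in IL10RAKO versus WT. SYK, INPP5D and B2M were named for their roles. Some genes that this rule names are not reported here. Members and lists were chosen with earlier results of these data known. Promoters are from RefSeq (all 6 members matched) and positions from GENCODE vM21.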

Additional observations from a re-analysis of the deposited data

Results flagged for a closer look

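FCGRT in DKO mouse 12 was at 93.7 CPM, far below the other 3 DKO mice (146 to 152 CPM). Its gap to the nearest of them, as a share of the group's range, was above Dixon's 95% critical value. It was the only such case among 24 groups of libraries examined (6 members in WT with and without mouse 11, IL10RAKO and DKO), and chance flags about 5% of groups. Without this mouse the log2 fold change of FCGRT in DKO against WT was -0.61 and did not pass (adjusted p = 0.121).

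The CCR2KO library, which enters no comparison, held FCGR1 at 146 CPM, FCGR3 at 642 CPM and FCGRT at 305 CPM, each above all 5 WT libraries. The share of all tested genes that lay above all 5 WT libraries in this library was not counted. It is 1 library, so these differences were not tested.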

How the results depend on the processing

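No paired analysis was possible because the groups hold different mice and the replicate numbers only name them. Each member was refitted under 23 alternatives per comparison, 12 of which left out 1 mouse. None reversed a call. In IL10RAKO against WT, library totals without TMM gave 2 called members and log2 fold changes of 0.49 for FCGR1, 0.31 for FCER1G, 0.30 for FCGR3 (none called) and -0.69 for FCGRT (called). A minimum of 10 reads in every library gave 2 called (0.59 for FCER1G and 0.58 for FCGR3, not called), and fitting only the 2 genotypes gave 1 (0.82 for FCGR1, 0.64 for FCER1G and 0.63 for FCGR3, not called). FCGR3 was not called with WT mouse 11 added (0.57) or by limma on the pseudocounts (0.59). The exact Mann-Whitney test, whose smallest p is 0.0286, gave no member a p under 0.05 once adjusted over its 18 tests (0.103 at best). An adjusted p under 0.05 would need most of the 18 tests at that smallest p, so the adjusted test cannot decide on single members. Unadjusted, the Mann-Whitney test did not pass for FCGR1 (0.81), FCER1G (0.62) or FCGR3 (0.58). In DKO against WT, FCGR3 was not called with library totals (0.39) or WT mouse 11 added (0.58), and FCGRT was not called without the filter on low counts (-0.73). FCGR2B (0.30) shared the smallest exact Mann-Whitney p with FCGR3, FCGR4 and FCGRT in this comparison (unadjusted p = 0.0286, adjusted p = 0.103). The cause of these changes was not tested.

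Leaving out 1 mouse gave 1 to 4 called members in IL10RAKO against WT and 1 to 3 in DKO against WT. The ranges in IL10RAKO were 0.67 to 1.02 for FCGR1 and 0.52 to 0.80 for FCER1G (each called in 6 of 12 fits, and lost without IL10RAKO mouse 1, 2 or 8 or WT mouse 4, 5 or 13) and 0.45 to 0.80 for FCGR3 (called in 2 of 12, those without IL10RAKO mouse 7 or WT mouse 10). In DKO they were 0.61 to 0.73 for FCGR3 (called in 5 of 12, and lost without any DKO mouse or WT mouse 4, 5 or 13), -0.83 to -0.61 for FCGRT (called in 3 of 12, those without WT mouse 5 or IL10RAKO mouse 1 or 2) and 0.37 to 0.56 for FCER1G (called in 1 of 12, without IL10RAKO mouse 7). The sign in DKO against IL10RAKO changed for FCGR2B in 1 and for FCGR3 in 4 of 12 fits, none of them called.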
